A study of Saccharomyces cerevisiae with 24 samples.

Results

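The pools compared here were grown on glucose, where the GAL1/10 promoter is shut, and carried either pYX223-MDM33 (the MDM33 plasmid) or pYX223 (the empty vector). They were chosen by their labels for plasmid and carbon source, which took 12 of the 24 dye channels of the series, 6 for each plasmid, and the other 12 came from galactose plates. The series is a screen for deletion strains that withstand overexpression of MDM33, and the glucose plates are its repressed control and show which strains the transformed pools held.

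All pools were made from the YSC1054 collection of haploid deletion strains in the BY4742 background, a laboratory strain of Saccharomyces cerevisiae. Every strain lacks a single open reading frame and carries a pair of DNA barcodes, the uptag and the downtag. The collection was pooled, grown in rich medium, transformed and selected for 4 days on glucose plates at 30°C. The medium held no amino acids other than leucine and lysine (30 mg/l each), plus uracil (20 mg/l). Transformants washed off these plates were spread again on 2% glucose for 2 days, and genomic DNA was taken. Each plasmid was measured in 2 experiments, so 4 glucose pools are compared. Whether the experiments started from separate transformations is not given in the sources used here, so a difference seen in both may not have arisen independently in each. In experiment 1 every glucose DNA was hybridized in Cy5 (4 channels), and in experiment 2 in both Cy3 and Cy5 (8 channels).

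Mdm33 is a protein of the mitochondrial inner membrane that is needed for normal mitochondrial shape, and its overproduction stops growth. Transcription from the GAL1/10 promoter requires the activator Gal4, which Gal80 holds inactive until Gal3 senses galactose, and on glucose Snf1 is inactive and repressors such as Mig1 keep the promoter off. pYX223 is a multicopy plasmid with HIS3 as its marker, so strains are selected for growth without added histidine. A strain that cannot make a nutrient absent from the plate, that transforms poorly or that grows slowly tends to be rare in such a pool with either plasmid.

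Barcode signal is a linear fluorescence intensity in units, after scaling of each channel to a common total. The values thus say what part of its pool a strain made up, not how many cells there were, and a pool with few cells of a strain cannot be told apart from one with less barcode product of it. The 12 channels summed to between 147379493 and 147553292 units, and the median labelled barcode gave 3569 to 11326 units. Signal below a limit of 176 to 837 units, set in each channel from barcodes of the tag that was not labelled there, was taken as not detected. No count of molecules underlies the values, and the 2 experiments per plasmid limit the precision. Of 5526 strains with a barcode probe, 4129 had a mean above the limit and were tested.

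No strain passed the test between the plasmids on glucose. Of the 4129 strains tested with limma, 0 passed a Benjamini-Hochberg adjusted p of 0.05 (0%), the smallest adjusted p was 0.9997, and 71 strains (1.72%) had an unadjusted p under 0.05. Of these, 31 were higher with the MDM33 plasmid (0.751%) and 40 were lower (0.969%). The median difference over all tested strains was 0.02 on the log2 scale of the value plus 500 units. The median standard error was 0.60, and the 95% interval of a strain's difference reached a median of 1.62 to either side, or 3.06-fold. For most strains, differences below about that size could not be resolved in these data. On the same strains, in a fit to all 4 groups, 404 passed the same test between the plasmids on galactose. The change of the plasmid difference from glucose to galactose, tested as an interaction, gave 0 strains at an adjusted p of 0.05 in limma (smallest adjusted p = 0.238) and 747 at an unadjusted p under 0.05.

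The pools with the 2 plasmids were close in experiment 2 and not in experiment 1. In experiment 2 their rank correlation was 0.933 over the 4129 tested strains, the median absolute difference was 0.23 on the log2 scale, and 115 strains (2.79%) were more than 4-fold apart. In experiment 1 the rank correlation was 0.737, the median absolute difference was 0.70, and 650 strains (15.7%) were more than 4-fold apart. The scatter in experiment 1 was as wide as that between experiments with one plasmid, where the rank correlation was 0.756 for the empty vector and 0.788 for the MDM33 plasmid, and 601 and 554 strains were more than 4-fold apart. The empty vector of experiment 2 and the MDM33 plasmid of experiment 1, which differ in both, gave 0.801 and 499 strains. The empty vector of experiment 1 and the MDM33 plasmid of experiment 2 gave 0.732 and 652 strains. These correlations are over strains and describe the pools, since strains share the hybridization and are not independent replicates.

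**Figure D1:**
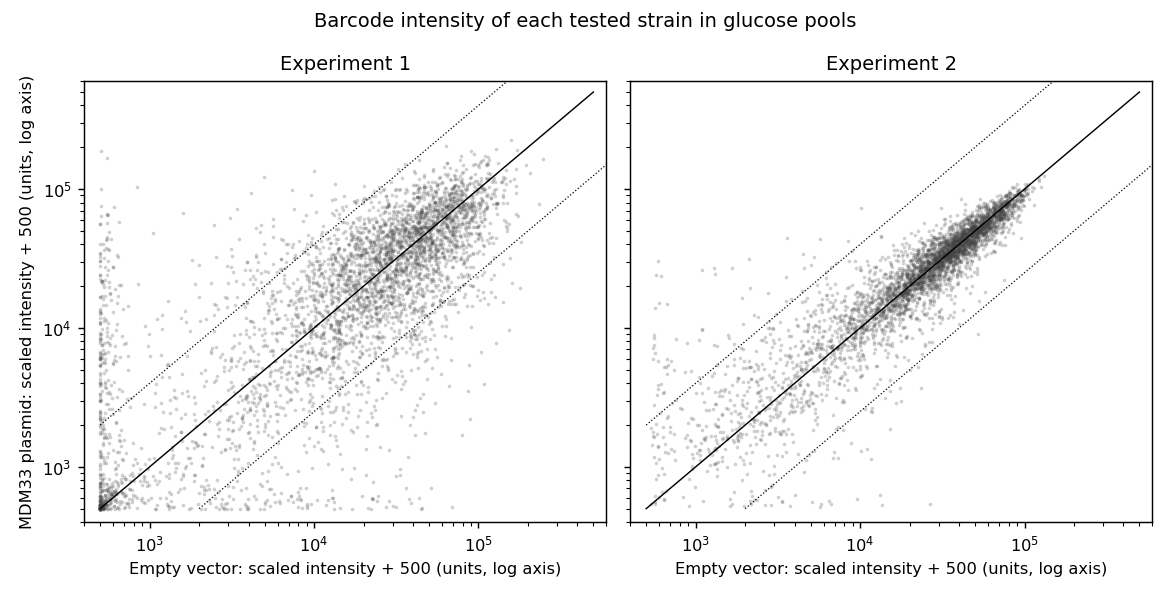
Scaled intensity plus 500 units of each of the 4129 tested strains with the empty vector (x axis) and the MDM33 plasmid (y axis) on log axes, 1 point per strain, in experiment 1 and experiment 2. The solid line marks equal values and the dotted lines 4-fold differences, which 650 strains exceeded in experiment 1 and 115 in experiment 2.

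The plasmid difference of a strain in experiment 1 said little about its difference in experiment 2. The rank correlation of the differences was 0.0186 (Pearson 0.0649, 4129 strains), and 2078 strains (50.3%) had the same sign in both. Of the 650 strains that differed more than 4-fold in experiment 1, 318 had the same sign in experiment 2. By contrast, the difference between experiments 1 and 2 was partly shared by the plasmids, with a rank correlation of 0.291 over the same strains. In many strains the scatter was shared by both barcodes. Among strains over 4-fold apart with a value for both tags, the uptag and the downtag differed in the same direction in 522 of 641 strains in experiment 1 (81.4%) and in 94 of 104 in experiment 2 (90.4%). Both tags were also more than 2-fold apart in 365 (56.9%) and 72 (69.2%) of these. The strains were picked by the average of the same tags, so a shared sign is not independent of the choice. In experiment 2, where each DNA was read in both dyes, the dyes gave rank correlations of 0.941 to 0.974.

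**Figure D2:**
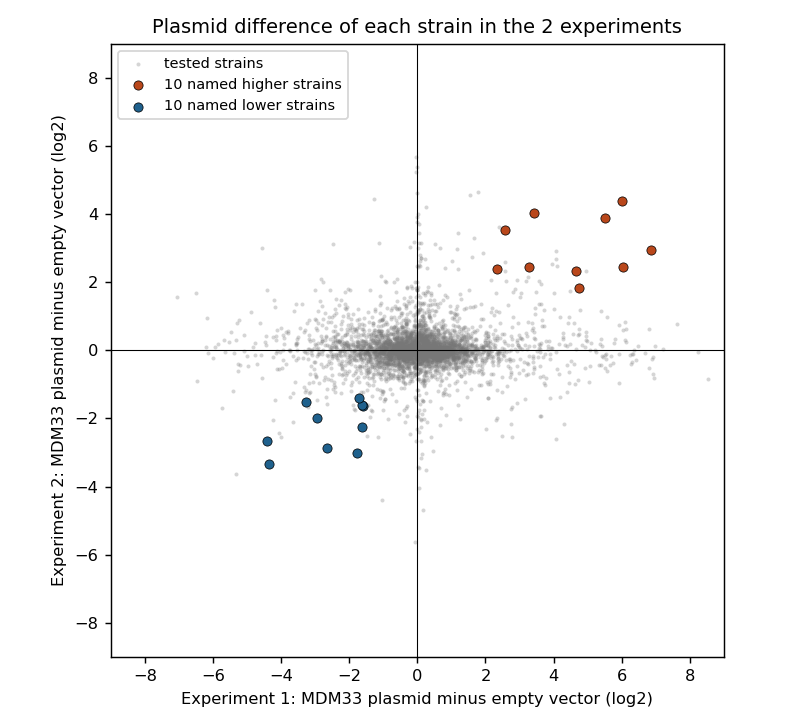
Log2 difference, MDM33 plasmid minus empty vector, of each of the 4129 tested strains in experiment 1 (x axis) and experiment 2 (y axis). The cloud lies along the x axis, with 2078 strains of the same sign in both experiments, and the coloured points are the 10 higher and 10 lower strains described in the text.

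The strains of genes around MDM33 and of the GAL switch were first read in each pool. The strain lacking MDM33 itself (SHE9 in RefSeq) had 844 and 1903 units with the empty vector and 68.6 and 4845 units with the MDM33 plasmid (log2 difference -0.04, SE 1.22). The MDM33 values lay on both sides of the others, so the groups overlapped. The signal of this strain was that of the downtag, since its uptag reached at most 38.2 units in any pool. The strain lacking GAL4 was the steadiest of the switch, with 62639 and 55671 units with the empty vector and 56034 and 57412 with the MDM33 plasmid (log2 difference -0.06, SE 0.45). The strain lacking GAL80, the inhibitor of Gal4, had 13900 and 51713 units with the empty vector and 4681 and 8553 with the MDM33 plasmid. These are values of the uptag alone, as the strain had no downtag value. Its groups did not overlap, as held downward for 13.4% of all tested strains, and the log2 difference of -2.00 (SE 0.82) did not pass limma's test (unadjusted p = 0.0667, adjusted p = 0.9997). The strain lacking GAL3, the galactose sensor, had 108117 and 22219 units with the empty vector and 3462 and 25741 with the MDM33 plasmid, so its difference of -2.28 (SE 1.28) came from experiment 1. It was carried by the downtag, since the uptag reached only 1999 units in any pool. HIS3, the gene on the plasmid, is also replaced in a strain of the collection, which gave 9826 to 44146 units in the 4 pools.

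ATP20, FMP30, PAM17, PHB1 and PHB2, which the study followed up, encode mitochondrial proteins. Their strains were present in all 4 glucose pools. The strain lacking ATP20, subunit g of the ATP synthase, had 31612 and 18280 units with the empty vector and 21002 and 20542 with the MDM33 plasmid (log2 difference -0.21, SE 0.52). FMP30 and PAM17, which act in lipid metabolism and protein import, gave differences of 0.34 (SE 0.66) and 0.64 (SE 0.51). The PAM17 signal was that of the uptag, since the downtag reached at most 36.8 units in any pool. The PAM17 groups did not overlap, as held upward for 11.2% of all tested strains. The prohibitins Phb1 and Phb2 form a ring complex in the inner membrane. The PHB1 strain differed by -0.25 (SE 0.70). The PHB2 strain had 5545 and 3865 units with the empty vector and 566 and 2151 with the MDM33 plasmid, groups that did not overlap (log2 difference -1.61, SE 0.65, limma unadjusted p = 0.0642, adjusted p = 0.9997). Groups were likewise apart downward for 13.4% of all tested strains. The PHB2 difference was carried by the downtag, since the uptag reached at most 308 units in any pool. The strain lacking ELP3, a subunit of Elongator, was between 60.4 and 525 units in the 4 pools and was not tested.

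The rest of the GAL and glucose signalling strains showed no plasmid difference past the test. For glucose repression, 6 of 10 strains were tested and their differences ran from -0.49 (MIG2) to 0.86 (NRG1), with a median of 0.11. Strains lacking the corepressor genes TUP1 and CYC8, or GRR1 or REG1, were too low to be tested. In the Snf1 kinase group the strains lacking SNF1 or SNF4 were at or below 52.9 units in every pool. The strain lacking GAL83, a subunit that targets the kinase, had 31157 and 36504 units with the empty vector and 15509 and 12576 with the MDM33 plasmid, 2 groups that did not overlap (log2 difference -1.24, limma unadjusted p = 0.0513). This held downward for 13.4% of all tested strains. In the galactose pathway, the strain lacking the galactokinase gene GAL1 had 23984 and 26207 units with the empty vector and 11080 and 14358 with the MDM33 plasmid (-0.96).

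The strains with the smallest unadjusted p are given next, chosen among the 842 whose uptag and downtag differences shared a sign in both experiments. None of them passed the adjusted test. With the MDM33 plasmid the highest difference was that of the strain lacking MRPL19, a protein of the large mitochondrial ribosomal subunit. It had 63.6 and 785 units with the empty vector and 35720 and 26457 units with the MDM33 plasmid. The log2 difference was 5.20 (SE 0.62, limma unadjusted p = 0.000781, adjusted p = 0.9997). The strain lacking MRPS5, of the small subunit, had 0 and 1604 units with the empty vector and 22166 and 30721 with the MDM33 plasmid (4.70, SE 0.85). Both pools with the MDM33 plasmid lay far above both with the empty vector, and both tags showed it. The MOD5 strain, which lacks a tRNA isopentenyltransferase, had 57.2 and 5180 units with the empty vector and 64703 and 43322 with the MDM33 plasmid (4.91, SE 1.24).

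The other higher strains were of lower abundance. The strain lacking HIM1, a gene linked to DNA repair, had 0 and 1447 units with the empty vector and 32140 and 10102 with the MDM33 plasmid (4.24, SE 0.97). The strain lacking WHI5, which represses the start of the cell cycle, had 217 and 1160 units with the empty vector and 7263 and 26612 with the MDM33 plasmid (3.73, SE 0.86). Its signal was mostly that of the uptag, since the downtag reached only 1762 units. The strain lacking ABF2, which packages mitochondrial DNA, had 0 and 1910 units with the empty vector and 12200 and 11530 with the MDM33 plasmid (3.49, SE 0.89). FYV7 encodes a protein of ribosomal RNA processing, and its strain had 0 and 68.0 units with the empty vector and 2471 and 6122 with the MDM33 plasmid (3.06, SE 0.60). MRPL25, of the large mitochondrial ribosomal subunit (2.36, SE 0.58), YGL188C-A (3.30, SE 0.84) and YPL205C (2.86, SE 0.60) complete the 10. In all 10 strains the lowest value was that of the empty vector in experiment 1, and in all of them it was at or under 217 units, against limits of 176 to 837 units.

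Among the lower strains, the one lacking CTP1, the citrate carrier of the mitochondrial inner membrane, had 16230 and 11086 units with the empty vector and 323 and 638 with the MDM33 plasmid (-3.85, SE 0.51, limma unadjusted p = 0.00118, adjusted p = 0.9997). The strain lacking TRM10, a tRNA methyltransferase, had 27980 and 22934 units with the empty vector and 833 and 3198 with the MDM33 plasmid (-3.54, SE 0.68). The groups were wide apart in both strains. SPT21 takes part in histone gene transcription, and its strain had 2624 and 3263 units with the empty vector and 0 and 20.3 with the MDM33 plasmid (-2.75, SE 0.46). The strain lacking ALG3, a mannosyltransferase of N-glycosylation, had 3471 and 2393 units with the empty vector and 15.9 and 237 with the MDM33 plasmid (-2.46, SE 0.51), a signal carried by the uptag alone.

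A lower strain with even averages of its tags lacked BRE5, the cofactor of a ubiquitin protease. It had 40796 and 41519 units with the empty vector and 13175 and 13032 with the MDM33 plasmid (-1.61, SE 0.45). Here the experiments lay close together within each plasmid and the groups were apart, while the adjusted p in limma was 0.9997. The strain lacking MMS1, a ubiquitin ligase subunit that acts at damaged replication forks, had 17213 and 14619 units with the empty vector and 4680 and 1362 with the MDM33 plasmid (-2.40, SE 0.68). RPS25A, of the small cytosolic ribosomal subunit (-2.39, SE 0.65), and KAR3, a kinesin (-1.62, SE 0.46), gave differences of the same sign. The open reading frames YCR049C (-1.94) and YOL050C (-1.56) were not matched in RefSeq.

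**Figure D3:**
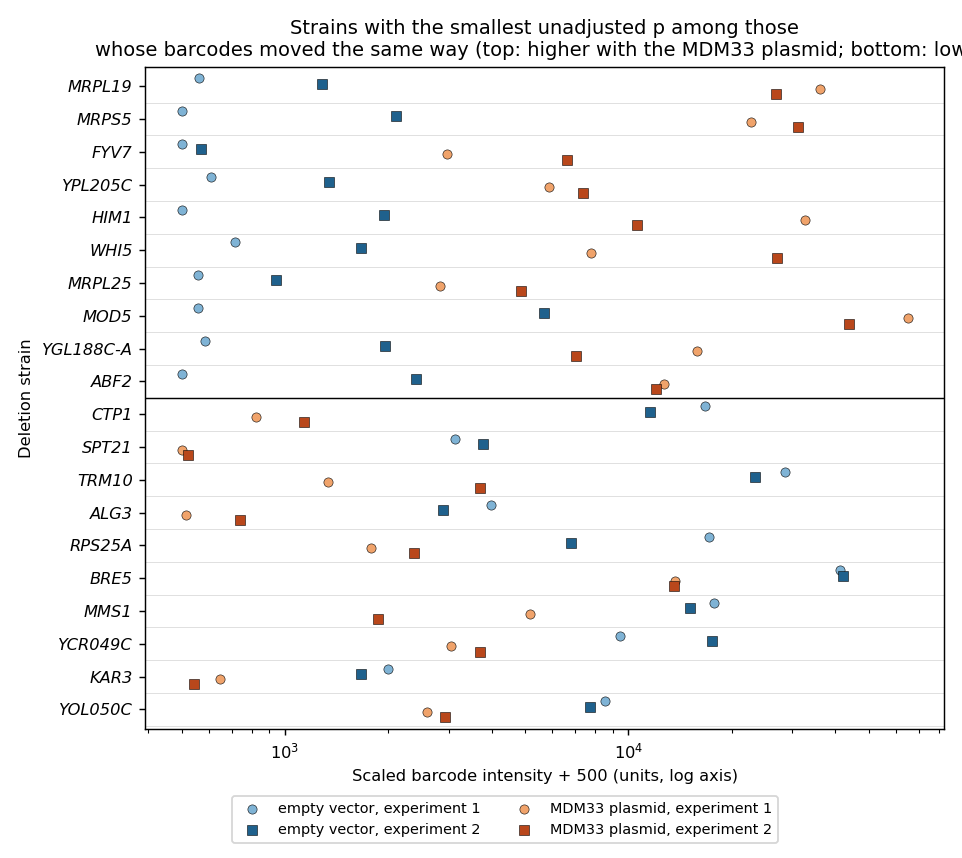
Scaled intensity plus 500 units (log axis) of the 10 higher and 10 lower strains in the 4 glucose pools, with blue for the empty vector, orange for the MDM33 plasmid, circles for experiment 1 and squares for experiment 2. The plasmids are separate in every row, which the choice of strains by tag sign and smallest p largely fixed. In the higher strains the leftmost point is the empty vector in experiment 1.

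A difference of more than 4-fold in the same direction in both experiments was found for 31 strains (0.751%), 23 higher and 8 lower with the MDM33 plasmid, and 11 strains were more than 4-fold apart in opposite directions. Of the 8 lower strains, 4 not yet described are given here. The strain lacking NPP1, a nucleotide phosphodiesterase, had 24119 and 6190 units with the empty vector and 117 and 42.0 with the MDM33 plasmid (-4.47, SE 0.78). The strain lacking OM14, of the mitochondrial outer membrane, had 7994 and 2352 units with the empty vector and 9.58 and 32.4 with the MDM33 plasmid (-3.24, SE 0.70). MDM31, whose product acts in the inner membrane in mitochondrial shape like Mdm33, was also among them. Its strain had 37834 and 4189 units with the empty vector and 1513 and 629 with the MDM33 plasmid (-3.15, limma unadjusted p = 0.0486). The groups did not overlap, as held downward for 13.4% of all tested strains. MGA2, a membrane-bound activator of fatty acid desaturation, gave -3.27 (SE 1.06).

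The 23 higher strains included, besides those above, strains lacking STE3, the receptor for a-factor, and SUR2, the sphingoid base hydroxylase. The STE3 strain had 120 and 784 units with the empty vector and 9092 and 6983 with the MDM33 plasmid (3.25, SE 0.59). The SUR2 strain had 75.5 and 7897 units with the empty vector and 17259 and 41495 with the MDM33 plasmid (3.63, SE 1.45), so it was well present in one of the empty vector pools. Neither passed the adjusted test.

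Strains lacking the open reading frames next to those of the 20 strains were also read. Of these adjacent strains, 26 were tested, 19 had the same sign as the named strain and 10 did not overlap between the plasmids in that direction, against 11.2% of all tested strains that did not overlap upward and 13.4% downward. YNL184C overlaps MRPL19 on chromosome XIV in RefSeq, and its strain had 10.3 and 207 units with the empty vector and 1351 and 845 with the MDM33 plasmid (1.39, SE 0.50). The strain lacking YOR082C, next to WHI5, had 20928 and 17990 units with the empty vector and 61904 and 43812 with the MDM33 plasmid (1.40, SE 0.48). YBR292C, next to CTP1, had 8395 and 22142 units with the empty vector and 204 and 4747 with the MDM33 plasmid (-2.88, SE 1.18). These pairs, all of the same sign, were noticed after the values were seen, and what lies behind them was not tested. Other adjacent strains went the other way, such as SPO23 next to MRPS5 (-0.63) and OMS1 next to HIM1 (-0.66).

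The galactose plates were spread from the same transformants as the glucose plates, so their values for these strains are given beside the glucose values. Of the 8 strains that were lower by more than 4-fold each time, 5 and 7 gave signal on galactose with the empty vector in experiments 1 and 2, and 0 and 1 with the MDM33 plasmid. Of the 23 higher strains, 6 and 17 were detected on galactose with the empty vector and 10 and 7 with the MDM33 plasmid. Over all tested strains, detection on galactose in experiments 1 and 2 was 87.5% and 94.7% with the empty vector and 73.3% and 60.6% with the MDM33 plasmid. BUD14 and DPB4 are 2 strains with high signal on galactose with the MDM33 plasmid, named here after their values were seen. The BUD14 strain, which lacks a regulator of protein phosphatase, had 0 and 56.6 units on glucose with the empty vector and 2465 and 2292 with the MDM33 plasmid (2.45, limma unadjusted p = 0.00447, adjusted p = 0.9997), and 973382 and 254061 units on galactose with that plasmid. On galactose with the empty vector it had 0 and 9338 units, so it was detected in experiment 2 there. The DPB4 strain, which lacks a subunit of DNA polymerase epsilon, had 0 and 95.7 units on glucose with the empty vector and 1234 and 14578 with the MDM33 plasmid.

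Most strains were detected in all 4 pools or in none. With the empty vector 3675 of 5526 strains were detected in experiment 1 (66.5%, 95% Wilson interval 65.2 to 67.7%) and 4174 in experiment 2 (75.5%, 74.4 to 76.6%). With the MDM33 plasmid 3727 (67.4%, 66.2 to 68.7%) and 4206 (76.1%, 74.97 to 77.2%) were detected. These intervals cover counting error only. In all 4 pools 3449 strains were detected (62.4%), and in none 1202 (21.8%). Strains of open reading frames not matched in RefSeq were much like the others, with 295 of 440 in all 4 pools and 84 in none. The signal was spread over many strains, and the 100 brightest held 10.7% of the signal of all strains with either plasmid in experiment 1 and 7.53% and 7.30% in experiment 2. Such pairs of 100 shared 33 strains between the plasmids in experiment 1 and 66 in experiment 2.

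Detection by experiment and by plasmid was then counted. A total of 252 strains were detected in both pools of experiment 2 and in neither of experiment 1, against 5 the other way. The experiments also differed in dye, since experiment 1 was read in Cy5 alone and experiment 2 in both. In Cy3 the limits were 263 and 176 units (uptag, empty vector and MDM33 plasmid) and 590 and 568 (downtag). In experiment 1 they were 494 and 751 units (uptag) and 561 and 837 (downtag). What dye and limit add to the counts of detection by experiment was not tested. Only 13 strains were detected in both pools with the MDM33 plasmid and in neither with the empty vector, and 14 the other way. The former included FYV7, BUD14, DPB4, SNF7, which encodes an ESCRT subunit, and MRPL17. The latter included NPP1, OM14, SPT21, KAR3 and AAC3, which encodes an ADP/ATP carrier. Their levels reached 24119 units at most in the glucose pools. Some strains in both counts lay near the limit. With the MDM33 plasmid RRP43 had 584 and 297 units and YDR535C 464 and 357. With the empty vector DUN1 had 610 and 314 units.

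Single pools of experiment 1 also lacked strains that the other 3 pools held above 5000 units. The median detected strain had between 25413 and 26666 units in each glucose pool. With the empty vector in experiment 1, 108 strains were below the limit although they exceeded 5000 units in each of the other 3 pools. Their median was 32.4 units there and 16539 units with the MDM33 plasmid in the same experiment. TOR1, which encodes a kinase of nutrient signalling, is one of them, and its strain had 0 units there, 81683 in experiment 2 with the same plasmid, and 55403 and 56738 with the MDM33 plasmid. With the MDM33 plasmid in experiment 1, 34 such strains were found, including the one lacking DPH1, an enzyme of diphthamide synthesis, with 26.01 units there and between 29760 and 67135 units in the other pools. In experiment 2 there was 1 such strain with the empty vector, CST6, and 0 with the MDM33 plasmid.

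These gaps were partly seen again on galactose. Of the 108 strains, 65 were detected on galactose with the empty vector in experiment 1 (60.2%, 95% Wilson interval 50.8 to 68.9%) and 75 with the MDM33 plasmid (69.4%, 60.2 to 77.3%). Of the 2847 strains above 5000 units in all 4 glucose pools, 98.9% and 91.4% were detected in those galactose pools. The 34 strains were detected on galactose in 9 cases with the MDM33 plasmid (26.5%, 14.6 to 43.1%) and in 28 with the empty vector (82.4%, 66.5 to 91.7%). The TOR1 strain had 0 units on galactose with the empty vector in experiment 1, and the DPH1 strain had 280 units there with the MDM33 plasmid.

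How often a strain was missing depended on its level elsewhere. Only strains detected with the other plasmid in the other experiment were counted. In experiment 1, among such strains under 2000 units there, 64.8% were not detected with the empty vector and 72.4% with the MDM33 plasmid. From 40000 to 80000 units these shares were 2.37% and 0.366%. In experiment 2 the shares were 8.95% and 13.8% under 2000 units and at most 1.9% in every higher range. The highest mean over the 4 pools belonged to the strain lacking SIA1, with 168756 and 130916 units with the empty vector and 140144 and 124763 with the MDM33 plasmid (log2 difference -0.17). The strain lacking PUT1, proline oxidase, was also among the first 10, as were those lacking ICL1, isocitrate lyase, and BEM3, a GTPase-activating protein of cell polarity.

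**Figure D4:**
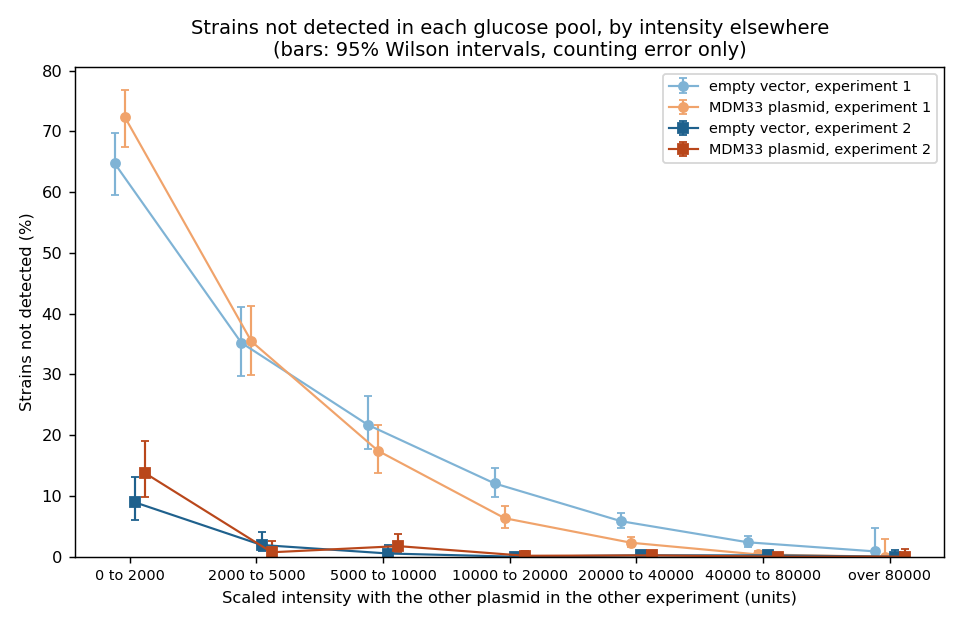
Share of strains not detected (y axis, percent) in each glucose pool against the strain's intensity with the other plasmid in the other experiment (x axis, units), with 95% Wilson intervals that cover counting error only. Only strains detected in that other pool are counted. The curves of experiment 1 start at 64.8% and 72.4%, and those of experiment 2 at 8.95% and 13.8%.

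Most strains that need a nutrient absent from the plates were detected in no pool. None of the 6 histidine, 10 aromatic amino acid and 8 adenine synthesis strains was detected in any pool. Of all strains with a probe, including those not in the collection, 21.8% were in none. Of the 17 strains for methionine, cysteine and threonine synthesis 16 were in no pool, and of the 9 for arginine synthesis 8 were. The exception in arginine synthesis was ARG7, with 5657 and 127 units with the empty vector and 66.6 and 486 with the MDM33 plasmid. Of the 5 for serine, isoleucine and proline synthesis 3 were in no pool. PRO2 was detected only with the empty vector in experiment 2, at 613 units. PRO1, the first enzyme of proline synthesis, gave 2413 units with the MDM33 plasmid in experiment 1 and at most 122 units in the other 3 pools. By contrast, of 16 strains for leucine, lysine and uracil synthesis, nutrients that were supplied, 14 were detected in all 4 pools and LEU1 in none.

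Detection of the other gene groups was counted in each pool, with no test between the plasmids. Of 21 ATP synthase strains, 7 and 12 were detected with the empty vector in experiments 1 and 2, and 6 and 15 with the MDM33 plasmid. All 5 strains of the ERMES complex and its regulator GEM1, which tether mitochondria to the endoplasmic reticulum, were in no pool. All 6 MICOS strains, which lack subunits of the complex at cristae junctions, were in all 4 pools, with differences from -1.11 (MIC27) to 0.95 (MIC19). MIC10 had 13848 and 13573 units with the empty vector and 7691 and 8981 with the MDM33 plasmid, groups that did not overlap (-0.69, limma unadjusted p = 0.198). Groups were apart downward for 13.4% of all tested strains. Outside mitochondria, 14 of 17 V-ATPase strains were in no pool, while VMA4 gave 6457 to 30413 units. All 7 strains of MDM33 and other mitochondrial morphology genes were tested, and apart from MDM31 their differences ran from -1.06 (MDM30) to 0.70 (MDM32).

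**Figure D5:**
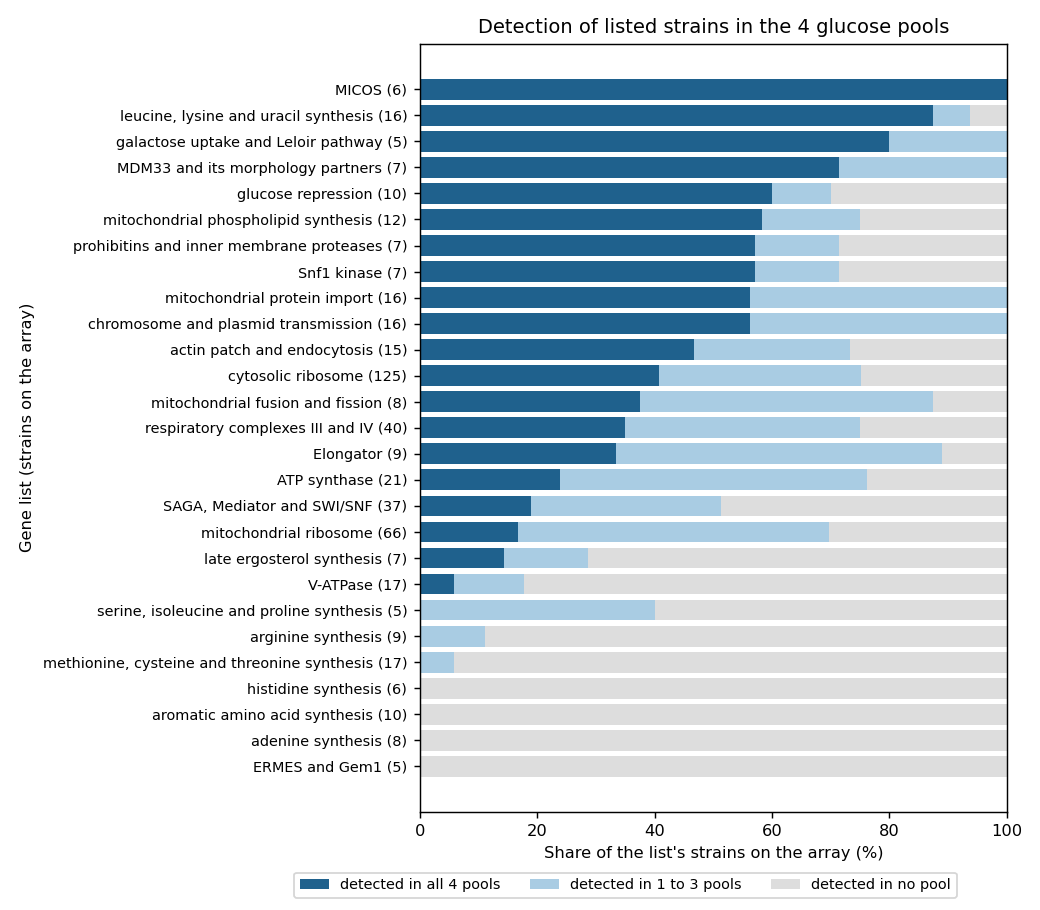
Share of the strains of each gene list (x axis, percent of those on the array, number in brackets) detected in all 4 glucose pools, in 1 to 3 pools or in none. The 6 MICOS strains were in all 4 pools, and the 6 histidine, 10 aromatic amino acid, 8 adenine and 5 ERMES and Gem1 strains in none.

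More strains of the mitochondrial ribosome were detected in experiment 2 than in experiment 1. Of 66 on the array, 18 and 22 were detected in experiment 1 with the empty vector and the MDM33 plasmid, and 39 and 45 in experiment 2. Detection over all strains was also higher in experiment 2, at 75.5% and 76.1% against 66.5% and 67.4%. Experiment 1 was read in Cy5 alone and experiment 2 in both dyes, so experiment and dye cannot be told apart in these counts. Of the 41 tested, 17 were higher with the MDM33 plasmid in both experiments and 6 lower, against 25.9% and 24.4% of all tested strains. None passed the adjusted test in limma, 5 were higher at an unadjusted p under 0.05 (MRPL19, MRPS5, MRPL25, MRPL9 and MRPL23) and none was lower. Over all tested strains, 0.751% were higher and 0.969% lower at that limma threshold. The median difference of the 41 was 0.62, against 0.02 for all tested strains. It was 0.05 in experiment 1 and 1.00 in experiment 2. This direction depended on the pools used, since the median was -0.25 without the empty vector of experiment 1 and -0.39 without the MDM33 plasmid of experiment 2. These fits no longer match the plasmids by experiment. The MRPL24 strain shows the spread between pools, with 47.0 and 593 units (empty vector) and 1111 and 25436 (MDM33 plasmid). The MRP1 strain had 11735 and 44054 units with the empty vector and 556 and 50987 with the MDM33 plasmid.

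For the cytosolic ribosome, where most proteins are encoded by a pair of genes, 87 of 125 strains were tested, 34 were higher with the MDM33 plasmid in both experiments and 16 lower, against 25.9% and 24.4% of all tested strains. The median difference was 0.21, with 0.09 in experiment 1 and 0.16 in experiment 2. It likewise turned to -0.20 and -0.30 without the same 2 pools, again in fits not matched by experiment. None passed the adjusted test in limma, and 2 were higher and 1 lower at an unadjusted p under 0.05, against 0.751% and 0.969% of all tested strains. The strain lacking RPS24A had 50989 and 32401 units with the empty vector and 200 and 34992 with the MDM33 plasmid, and that lacking RPS24B, the other copy, had 7.08 and 4039 units with the empty vector and 2522 and 26712 with the MDM33 plasmid. The copies thus lay on opposite sides in experiment 1. Of the 16 strains for chromosome and plasmid transmission, all tested, 4 were higher in both experiments and 7 lower (median -0.29), against the same 25.9% and 24.4%. The strain lacking BIM1, a microtubule-binding protein, had 24778 and 26874 units with the empty vector and 893 and 9395 with the MDM33 plasmid (-2.82, limma unadjusted p = 0.0519, adjusted p = 0.9997).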

How the data were processed

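Values were the deposited scaled intensities, spot densities that the authors background-corrected in ArrayVision and scaled to a common total per channel. No further scaling was applied. Of 14767 annotated probes 14741 were used. A set of 24 columns of unscaled values, whose numbering does not match the sample titles, was not used. Of 5526 strains, 5086 were matched to RefSeq R64. Barcode sequences were not used here, and LEU2 and URA3 were not analysed here.

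Dyes were averaged within an experiment, then uptag and downtag, with the original probe where present and otherwise the re-sequenced probes. The limit was the 99th percentile of original probes of the unlabelled tag. Strains with a mean ratio to it above 1 over the 4 pools were tested on log2(value + 500) with lmFit and eBayes, 2 values per plasmid and 2 residual degrees of freedom. The 500 units make differences of low strains smaller. With 2 values a side, exact permutation cannot reach 0.05 and was not used.

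Strains named were all those past the test (there were none), the 10 in each direction with the smallest unadjusted p whose 4 tag differences shared a sign, the 10 of highest mean, genes the study names, and list members. Others were chosen after their values were seen. The comparison, lists and members were chosen with earlier results of these data known. Alternatives covered the offset, scaling, filter, tags, dyes, probes, samples in the fit, array weights, moderation, a replicate block and each replicate left out. The fit was tested on simulated data. Numbered replicates are sets in the series' own design, and the experiment differences of the plasmids correlated over strains (Pearson 0.311), a single pair of differences.

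Python 3.11.15, pandas 2.3.3, numpy 2.4.6, scipy 1.17.1, matplotlib 3.10.9, R 4.3.3 and limma 3.58.1 were used.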

Additional observations from a re-analysis of the deposited data

Results flagged for a closer look

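Signal in re-sequenced barcode probes, which carry the sequence found in a strain where it differs from the design, was not used where a strain has an original probe. Of 2396 strains with probes of both kinds, 326 were below the limit by the original probes in all 4 glucose pools, and 21 of these were above it by a re-sequenced probe in all 4. The strain lacking SIP4, which encodes an activator of gluconeogenic genes, led them with 66.3 to 188 times the limit. The strain lacking YPL216W had 37.7 to 88.1 times and that lacking MGR3, of the mitochondrial i-AAA protease, 35.3 to 64.8 times the limit. The report counts these 21 strains as not detected.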

How the results depend on the processing

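Under all 22 alternatives of the fit, limma called 0 strains higher and 0 lower at an adjusted p of 0.05, with smallest adjusted p from 0.0693 (scaling to the median of the labelled barcodes) to 0.99998. With the experiment number as a replicate block, the counts were 0 and 0 (smallest adjusted p = 0.928), with 61 strains higher and 47 lower at an unadjusted p under 0.05 against 31 and 40 without the block, and no other call changed. Those unadjusted counts moved further with the pools and the scaling. They were 115 and 52 with the median of the labelled barcodes and 92 and 38 with the 75th percentile of all probes, which moved the median of all strains from 0.02 to -0.12. They were 267 and 48 without the empty vector of experiment 2 and 19 and 197 without the MDM33 plasmid of experiment 2, fits in which the lone value of a plasmid is assumed to vary like the other plasmid's. For the 20 strains of smallest p, all 438 recomputed differences had the sign of the main value, which the choice of strains by the sign of their 4 tag differences largely fixed. The rank correlation of the plasmid difference between experiments stayed between -0.00602 (uptags alone) and 0.0384 (Cy5 alone). Strains detected in both experiments numbered 3607 to 3735 with the empty vector and 3664 to 3819 with the MDM33 plasmid under the other limits and probes.

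The ribosome lists were recomputed as alternatives chosen after seeing the data. With each pool left out in turn, the median of the mitochondrial ribosome strains ran from -0.39 to 1.80, negative without the empty vector of experiment 1 (-0.251) and without the MDM33 plasmid of experiment 2 (-0.39). That of the cytosolic ribosome ran from -0.301 to 0.789, with -0.201 and -0.301 without the same pools. These fits set a pool of one experiment against another experiment's. The other settings kept both medians above 0, down to 0.15 for the mitochondrial ribosome by uptags alone and 0.0955 for the cytosolic ribosome by downtags alone. With 2 experiments per plasmid and a single dye in experiment 1, differences below a few fold could not be resolved.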
